A study of Mus musculus with 15 samples.

Results

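The 10 genes described here set the pace of the G1 phase: the D-type cyclins Ccnd1, Ccnd2 and Ccnd3, their kinase partners Cdk4 and Cdk6, and the CDK inhibitors Cdkn1b, Cdkn1c, Cdkn2a, Cdkn2b and Cdkn2c. They were taken by gene symbol as the G1 control genes other than p21 (Cdkn1a), out of 20207 genes in each table, and 7 of them had at least 1 count in every library and could be tested. Transcript levels came from mRNA-seq of NIH3T3, an established line of mouse embryonic fibroblasts. The cells stably carried DD-sfGFP, in which an FKBP-derived destabilizing domain (DD) precedes a green fluorescent protein, and had been kept as a pool sorted for high GFP signal. The DD is folded while its ligand Shield-1 (S1) is bound, and it unfolds when purified FKBP(F36V) protein, added to the medium, takes the ligand away. Every group carried the same transgene, the 5 control libraries came from cells that kept S1 (labelled as no stress, time 0), and 3, 3 and 4 libraries were made 45, 135 and 405 min after it. Whether replicates came from separate cultures is not given in the sources used here, so p-values measure the spread between these libraries, which may be technical.

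D-type cyclins are made in response to growth factors, bind CDK4 or CDK6, and the active kinase phosphorylates the retinoblastoma protein, which frees E2F factors to start the genes of S phase. The INK4 inhibitors p16 (Cdkn2a), p15 (Cdkn2b) and p18 (Cdkn2c) bind CDK4 and CDK6 themselves, while the CIP/KIP inhibitors p27 (Cdkn1b) and p57 (Cdkn1c), relatives of p21, act on cyclin-CDK complexes, chiefly those of CDK2. The amounts of cyclin D1 and p27 are known to be set largely by protein turnover, which transcript levels do not show.

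Library totals lay between 6652539 and 30258404 counts. The libraries fell into 2 sets by the slope of expression on transcript GC content, a split drawn from the data and not given by the labels. The study's methods name 2 ways of preparing libraries while the labels name 1 kit for all 15, and the part of the preparation in the sets was not tested. Set 2 held control replicate 2, 45-min replicate 3 and 405-min replicates 1, 2 and 4, with slopes of -0.363 to 0.059 log2 CPM (the count scaled to the size of the library) per 10 percentage points of GC, and the other 10 libraries had -1.438 to -0.661. Since 3 of the 4 libraries at 405 min but 1 of 5 controls belonged to set 2, time and set overlapped in part, and 50.1% of the 10276 tested genes differed between the sets. Each comparison is therefore given from the edgeR fit with a term for group alone, the planned test, and from a fit with library set as a further term. Control replicate 3 stood apart as the shallowest library and the one with the lowest slope. All 10 fibroblast markers exceeded 10 CPM in every library, and the summed level of the epithelial, leukocyte, endothelial or muscle markers did not exceed 5.16 CPM in any. In such bulk samples fewer cells expressing a gene and less RNA per cell cannot be told apart.

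Per transcript length, the D-type cyclin machinery of these fibroblasts consisted mainly of Cdk4 and Ccnd1. In the controls the median RPKM (reads scaled by transcript length and depth, as deposited) was 110.3 for Cdk4, 42.5 for Ccnd1, 30.5 for Cdkn2c, 14.4 for Ccnd2, 8.14 for Cdkn1b, 7.87 for Cdk6 and 1.86 for Ccnd3, and it was 0 for Cdkn1c, Cdkn2a and Cdkn2b. Cdk4 exceeded Ccnd1 in 15 of 15 libraries and Ccnd1 exceeded Cdkn2c in 13. The order of Cdkn1b and Cdk6 held in 8 of 15 libraries, and the control ranges of each pair of neighbours from Cdk4 down to Ccnd3 overlapped. Of the summed D-cyclin RPKM, Ccnd1 made up 63.3% to 78.1% and Ccnd2 21.2% to 32.2% in every library. The share of Ccnd3 was 0.64% to 4.06% in set 1 and 7.61% to 10.99% in set 2. Exons of Ccnd1 shared 818 bases with Oraov1, those of Ccnd3 353 with Bysl, those of Cdk4 604 with Tspan31 and those of Cdk6 60 with Gm17590, each on the opposite strand in the annotation of the same assembly. Whether the counting used strand is not given in the sources used here, so reads from those stretches could belong to either gene.

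**Figure D1:**
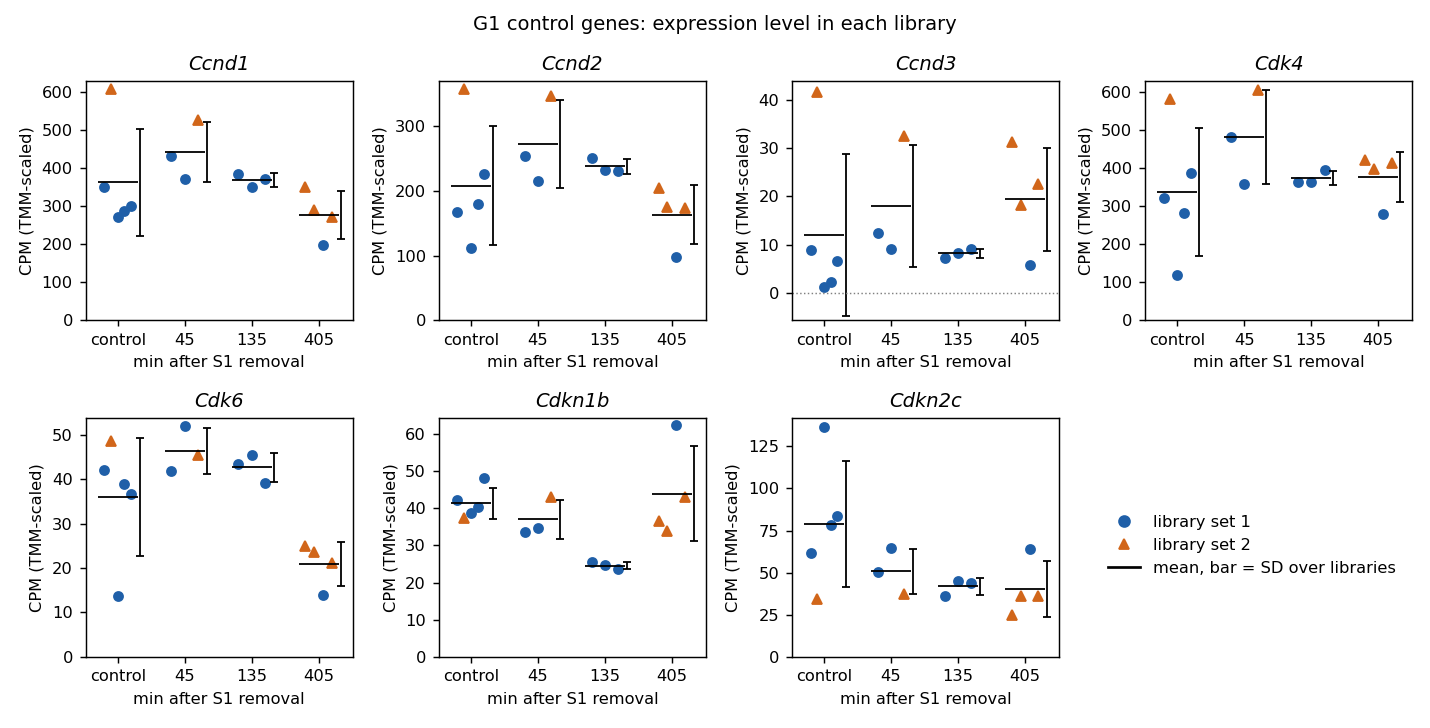
Level of each tested member in every library, as CPM scaled by TMM factors (y axis), against the time after S1 removal in min (x axis), where symbols mark the library sets and lines the group mean with its SD. The 3 Cdkn1b values at 135 min lie below all controls, the 4 Cdk6 values at 405 min lie between 14.0 and 25.1, and Ccnd3 follows the library set.

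Apart from Cdkn1b at 135 min, the libraries made after withdrawal of S1 overlapped with the controls for each of the 7 tested members, and the members that passed the threshold against control in either fit were lower, not higher. Cdkn1b and Cdkn2c were lower at 135 min, and Ccnd1, Ccnd2 and Cdk6 were lower at 405 min, each past the threshold once library set was in the fit. Cdk4 passed the threshold at no time in either fit. At 45 min 0 of 7 members passed, as did 0% of all tested genes, with edgeR adjusted p-values of 0.698 to 0.765. At an unadjusted p under 0.05 the counts at 45 min were 0 members and 365 genes, and DESeq2 called 6 genes and no member. At 135 min 0 members passed in the fit by group, in which 1.46% of genes did. An unadjusted p under 0.05 was found there for 2 members and for 1226 of the 10276 genes. DESeq2 called 1 member, Cdkn1b, among the 2.62% of genes that it called lower. With library set in the fit 2 members, Cdkn1b and Cdkn2c, fell at 135 min, when 4.88% of genes fell, and the same pair fell within set 1, when 3.57% of genes did. At 405 min 1 member, Cdkn2c, fell in the fit by group, against 13.4% of genes that fell and 23.4% that passed in either direction. With library set in the fit 3 members fell at 405 min, Ccnd1, Ccnd2 and Cdk6, against 6.87% of genes. Within set 2 the same 3 passed, when 2.07% of genes fell, but there the only control is replicate 2, which was the highest control for all 3, so those values rest on that library. Between 135 and 405 min Cdkn1b rose in the fit by group, as did 2.24% of genes, and 4 members passed with library set as a term, when 3.68% of genes passed in either direction. In the joint test of all time points 0 members passed, against 9.69% of genes, and with library set in the fit 5 passed, Ccnd1, Ccnd2, Cdk6, Cdkn1b and Cdkn2c, against 13.1% of genes. By group the lowest edgeR adjusted p-values were 0.057 for Cdkn1b and 0.0808 for Cdk6, with unadjusted values of 0.0059 and 0.0112. Cdkn2c had an unadjusted p of 0.0348 there, and DESeq2 called Cdk6 and Cdkn1b among the 2464 of 10276 genes that it called. The median log2 fold change of the 7 members was 0.36 at 45 min, 0.02 at 135 min and -0.35 at 405 min, beside 0.02, -0.06 and -0.001 over all tested genes.

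**Figure D2:**
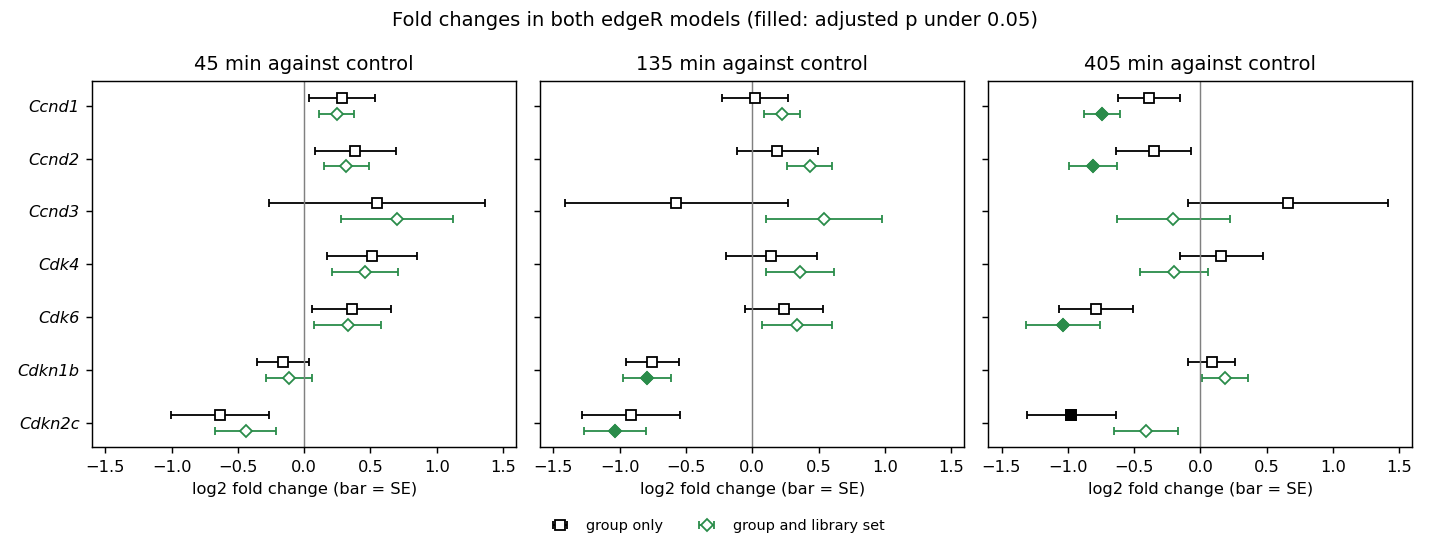
Log2 fold change against control (x axis, bars are SE) of the 7 tested members (y axis) at each time, with squares for the fit by group and diamonds for the fit with library set added. Filled symbols passed the threshold: Cdkn1b and Cdkn2c at 135 min and Ccnd1, Ccnd2 and Cdk6 at 405 min with the set in the fit, and Cdkn2c at 405 min in the fit by group.

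Ccnd1 encodes cyclin D1, the main D-type cyclin of fibroblasts. Its CPM was 349.6, 609, 270.3, 286 and 301 in control replicates 1 to 5, 432, 371 and 526 at 45 min, 385, 349 and 372 at 135 min, and 351, 290.1, 197 and 272.5 at 405 min. Control replicate 2, a set 2 library, was the highest of all, the other 4 controls overlapped with the 405-min libraries, and the 405-min value of 197 in set 1 was the lowest. The log2 fold change at 405 min was -0.39 ± 0.23 (SE, edgeR adjusted p = 0.212) by group and -0.74 ± 0.14 (edgeR adjusted p = 0.00197) with library set in the fit. By group it ran from -0.52 to -0.12 on leaving out 1 library, with -0.12 without control replicate 2 (edgeR adjusted p = 0.566) and -0.25 without 405-min replicate 3. Within set 2, which compares 3 libraries with control replicate 2 alone, it was -0.99 ± 0.21 (edgeR adjusted p = 0.0179). Within set 1, which compares 1 library with 4 controls, it was -0.63 ± 0.19 (edgeR adjusted p = 0.12). At 135 min the difference was 0.02 ± 0.25 by group and 0.22 ± 0.14 with library set. Directly between 135 and 405 min Ccnd1 was lower at 405 min by a log2 difference of -0.41 (edgeR adjusted p = 0.306) by group and -0.96 (edgeR adjusted p = 0.00559) with library set.

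Ccnd2, which encodes cyclin D2, had a similar course at a lower level. The CPM values were 167, 357, 112, 179 and 226 in the controls, 254, 215 and 347 at 45 min, 250.7, 232 and 231 at 135 min, and 205, 176, 97.9 and 174 at 405 min. All 4 libraries at 405 min lay below the 3 at 135 min, as 17.6% of tested genes did, while they overlapped with the controls. The fold change at 405 min was -0.35 ± 0.29 on the log2 scale (edgeR adjusted p = 0.351) by group and -0.81 ± 0.18 (edgeR adjusted p = 0.00693) with library set. By group it ran from -0.51 to -0.07 on leaving out 1 library, with -0.07 without control replicate 2 (edgeR adjusted p = 0.821) and -0.17 without 405-min replicate 3. It was -0.94 within set 2 (edgeR adjusted p = 0.0179), against control replicate 2 alone, and -0.82 within set 1 (edgeR adjusted p = 0.212). The difference between 405 and 135 min went from -0.54 ± 0.32 (edgeR adjusted p = 0.271) by group to -1.24 ± 0.22 (edgeR adjusted p = 0.00559) with library set.

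Ccnd3 encodes cyclin D3 and followed the library set. Its control median RPKM was the lowest of the 7 tested members, and Ccnd3 lay below Cdk6 in 12 of 15 libraries. Its CPM was 8.84, 41.5, 1.21, 2.37 and 6.54 in the controls, 12.4, 9.06 and 32.4 at 45 min, 7.28, 8.36 and 9.14 at 135 min, and 31.3, 18.1, 5.76 and 22.6 at 405 min. The 5 set 2 libraries, at 18.1 to 41.5, all exceeded the 10 set 1 libraries, at 1.21 to 12.4. Between the sets 50.1% of tested genes differed, and the share with no overlap was not counted. The set difference was 2.34 ± 0.37 on the log2 scale (edgeR adjusted p = 0.000141). The log2 fold change at 405 min was 0.66 ± 0.75 (edgeR adjusted p = 0.512) by group and -0.20 ± 0.43 (edgeR adjusted p = 0.8) with library set, so its sign depended on the fit. Without control replicate 2, its highest library and the 1 control of set 2, the fit by group gave 1.99 (edgeR adjusted p = 0.0115). The longest annotated transcripts of Ccnd3 and Cdkn2c have nearly the same GC content, 58.4% and 58.0%, but need not be those counted. The set differences of Ccnd3 and Cdkn2c had opposite signs. This pair is named after its values were seen, and the part of GC content in the set differences of single genes was not tested.

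Cdk4 and Cdk6 encode the alternative kinase partners of the D cyclins. Their upstream sequences are shown because the Cdk4 promoter carries an unusual run of E-boxes (CACGTG, a palindrome, so both strands read alike) and that of Cdk6 has 1. Both are the 250 bases before the RefSeq transcription start on GRCm38.p6, plus strand, chr10:127063285-127063534 for Cdk4 and chr5:3343643-3343892 for Cdk6, with the E-boxes in capitals.
Cdk4: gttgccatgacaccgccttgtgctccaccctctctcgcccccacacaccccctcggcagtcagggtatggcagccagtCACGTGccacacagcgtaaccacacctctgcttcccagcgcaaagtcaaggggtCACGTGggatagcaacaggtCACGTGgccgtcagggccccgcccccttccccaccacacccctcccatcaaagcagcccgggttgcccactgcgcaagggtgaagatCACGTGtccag
Cdk6: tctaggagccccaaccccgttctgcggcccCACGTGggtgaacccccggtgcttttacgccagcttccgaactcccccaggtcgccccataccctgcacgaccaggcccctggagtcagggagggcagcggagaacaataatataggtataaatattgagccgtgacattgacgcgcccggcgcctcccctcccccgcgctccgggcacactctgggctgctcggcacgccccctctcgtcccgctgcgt
The E-boxes of Cdk4 begin 172, 118, 98 and 11 bases before the start, and the E-box of Cdk6 begins 220 bases before it. Among 32851 windows of the same length 6.0% held this motif and 7 held at least 4. A match is a description of the letters and not a measured site. Of the 10 genes 7 had a RefSeq window (10 windows in all), and Ccnd1, Ccnd2 and Cdkn1c had none here. These coordinates belong to another build than the deposited tables, which place Cdk4 at chr10:126500659-126504338 and Cdk6 at chr5:3344312-3522225 on mm9.

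The CPM of Cdk4 was 321, 581, 117, 280.5 and 386 in the controls, 481, 358 and 604 at 45 min, 363, 362.5 and 393 at 135 min, and 419.6, 397, 278 and 412 at 405 min. Every treated library lay within the control range except 604 at 45 min, a set 2 library. The log2 fold change at 405 min was 0.16 ± 0.32 (edgeR adjusted p = 0.715) by group and -0.20 ± 0.26 (edgeR adjusted p = 0.658) with library set. At 135 min the values were 0.14 ± 0.34 and 0.36 ± 0.26, and at 45 min 0.51 ± 0.34 and 0.46 ± 0.25, with edgeR adjusted p-values of 0.366 to 0.919. Cdk4 was higher in set 2 than in set 1 by 0.74 ± 0.22 on the log2 scale (edgeR adjusted p = 0.0124).

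Cdk6 was lower at 405 min. Its CPM was 42.1, 48.8, 13.7, 38.9 and 36.8 in the controls, 41.8, 52.0 and 45.5 at 45 min, 43.5, 45.6 and 39.1 at 135 min, and 25.1, 23.7, 14.0 and 21.05 at 405 min. All 4 libraries at 405 min lay below those of 135 min, as was true of 17.6% of tested genes. They also lay below those of 45 min and below 4 of the 5 controls, and the share of genes with that order was not counted. The remaining control, replicate 3, had the lowest value of all. The fold change at 405 min was -0.78 ± 0.28 on the log2 scale (edgeR adjusted p = 0.0548) by group and -1.03 ± 0.28 (edgeR adjusted p = 0.0219) with library set. It was -1.05 ± 0.21 within set 2 (edgeR adjusted p = 0.0141), against control replicate 2 alone, and -1.25 ± 0.50 within set 1 (edgeR adjusted p = 0.239). In the fit by group without control replicate 3 it was -0.99 (edgeR adjusted p = 0.00213). Against 135 min Cdk6 differed by -1.02 ± 0.31 (edgeR adjusted p = 0.0674) by group and -1.37 ± 0.33 (edgeR adjusted p = 0.0326) with library set. The earlier differences from control were 0.36 ± 0.30 at 45 min and 0.24 ± 0.30 at 135 min, neither past the threshold. The set difference of Cdk6 was 0.43 ± 0.24 (edgeR adjusted p = 0.151).

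The balance of the kinases within a library needs no scaling for the depth of libraries. The longest annotated transcripts differ in GC content (53.3% for Cdk4 and 49.2% for Cdk6). The part of the GC slopes of the libraries in this ratio was not tested. The ratio of Cdk4 to Cdk6 reads was 7.64, 11.91, 8.56, 7.22 and 10.48 in the controls, 11.49, 6.89 and 13.27 at 45 min, 8.35, 7.95 and 10.06 at 135 min, and 16.72, 16.72, 19.84 and 19.55 at 405 min. The 4 ratios at 405 min exceeded those of all 11 other libraries. How often other pairs of genes do so was not counted. The mean log2 ratio was 4.18 ± 0.14 (SD, n = 4) at 405 min and 3.17 ± 0.31 (SD, n = 5) in the controls, a difference of 1.01 with an exact two-sided permutation p of 0.00794, the smallest this design allows, and 0.0238 after adjustment over 3 comparisons. At 45 min the difference was 0.18 (exact permutation p = 0.571), and at 135 min it was -0.04 (exact permutation p = 0.821). Within set 1 the 405-min difference was 1.24 (exact permutation p = 0.2) and within set 2 it was 0.56 (exact permutation p = 0.25), each the smallest p its number of libraries can give. This ratio was chosen after the values of both genes had been seen, so its p-value is a description.

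**Figure D3:**
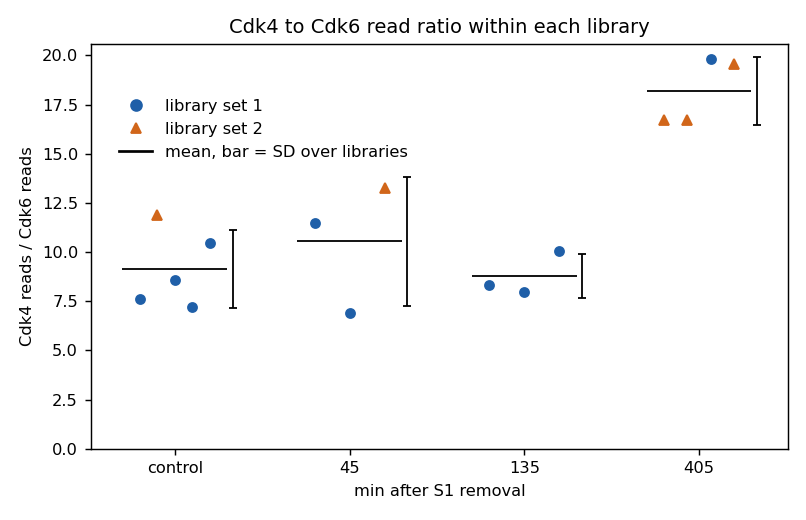
Ratio of Cdk4 reads to Cdk6 reads in each library (y axis) by time after S1 removal in min (x axis), where symbols mark the library sets and lines the group mean with its SD. The 4 libraries at 405 min, from both sets, lie between 16.72 and 19.84, and the other 11 lie between 6.89 and 13.27.

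Cdkn1b encodes p27, an inhibitor of cyclin-CDK complexes that is known to be high in resting cells. Its transcript was lower at 135 min, and at 405 min its libraries spread to both sides of the controls. Its promoter is shown because it belongs to the only member whose libraries did not overlap with the controls at some time: the 250 bases before the RefSeq start on GRCm38.p6, chr6:134920151-134920400, plus strand, with CCAAT boxes (CCAAT, or ATTGG on the other strand) in capitals.
Cdkn1b: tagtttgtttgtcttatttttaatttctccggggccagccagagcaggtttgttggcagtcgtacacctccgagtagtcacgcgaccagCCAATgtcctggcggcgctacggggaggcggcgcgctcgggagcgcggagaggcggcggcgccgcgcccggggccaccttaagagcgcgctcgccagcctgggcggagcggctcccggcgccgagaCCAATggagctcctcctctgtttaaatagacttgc
The CCAAT boxes begin 161 and 35 bases before the start. At least 1 CCAAT was present in 33.8% of all 32851 windows and at least 2 in 10.1%. The deposited tables place the gene at chr6:134870419-134875543 on mm9.

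The CPM of Cdkn1b was 42.4, 37.4, 38.8, 40.3 and 48.1 in the controls, 33.5, 34.6 and 43.1 at 45 min, 25.4, 24.7 and 23.6 at 135 min, and 36.6, 33.8, 62.4 and 43.0 at 405 min. The 3 libraries at 135 min lay below every control, as was true of 4.75% of tested genes. They also lay below every library of the other times, and the share of genes with that order was not counted. Group means were 41.4 ± 4.17 (SD, n = 5) in the controls and 24.6 ± 0.927 (SD, n = 3) at 135 min. The log2 fold change at 135 min was -0.75 ± 0.20 (edgeR adjusted p = 0.0859) by group and -0.80 ± 0.18 (edgeR adjusted p = 0.014) with library set. Since the 135-min libraries all belong to set 1, the comparison within set 1 uses 4 of the 5 controls and gave -0.79 ± 0.15 (edgeR adjusted p = 0.0152). At 405 min the difference from control was 0.08 ± 0.18 by group and 0.18 ± 0.17 with library set, neither past the threshold. Tested directly, Cdkn1b was higher at 405 than at 135 min by 0.84 ± 0.21 on the log2 scale (edgeR adjusted p = 0.0322) and by 0.98 ± 0.21 (edgeR adjusted p = 0.018) with library set. All 4 libraries at 405 min lay above the 3 at 135 min, as 19.2% of tested genes did. The call was lost when any library of 135 min or 405-min replicate 4 was left out, with edgeR adjusted p-values of 0.0917 to 0.13 and log2 differences of 0.81 to 0.86. Within set 1, with 1 library at 405 min, the difference was 1.33 ± 0.20 (edgeR adjusted p = 0.0568). The set difference of Cdkn1b was -0.21 ± 0.15 (edgeR adjusted p = 0.257).

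Cdkn1c, which encodes p57, was barely detected. It had 1 count in control replicate 2, 1 in 45-min replicate 3, 3 in 135-min replicate 3 and 0 in the other 12 libraries. A count of 0 allows up to 3 counts, which is 0.0991 CPM in the deepest library and 0.451 CPM in the shallowest. No comparison could be made at this depth.

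Cdkn2c encodes p18, the INK4 inhibitor that these cells express. Its CPM was 61.7, 34.6, 136, 78.5 and 83.9 in the controls, 50.3, 64.5 and 37.4 at 45 min, 36.3, 45.0 and 44.1 at 135 min, and 25.1, 36.0, 63.8 and 36.0 at 405 min. Control replicate 3 was the highest of all and control replicate 2 the lowest control. The 3 libraries at 135 min lay below the 4 controls of set 1 but above control replicate 2, at 34.6. They therefore overlapped with the controls, and the share of genes below the controls of set 1 was not counted. In each group with both sets the set 2 libraries were the lowest. At 135 min the log2 fold change was -0.91 ± 0.37 (edgeR adjusted p = 0.324) by group, -1.03 ± 0.23 (edgeR adjusted p = 0.0143) with library set and -1.10 ± 0.25 (edgeR adjusted p = 0.0315) within set 1. At 405 min it was -0.97 ± 0.34 (edgeR adjusted p = 0.0497) by group, which passed the threshold, and -0.41 ± 0.24 (edgeR adjusted p = 0.295) with library set, which did not. Within set 2 the 405-min difference was -0.08 ± 0.25 (edgeR adjusted p = 0.909), and within set 1 it was -0.50 ± 0.36 (edgeR adjusted p = 0.512). The set difference was -0.998 ± 0.214 (edgeR adjusted p = 0.00135), in the same direction as the 405-min difference, and its part in that call was not tested beyond these fits. The 405-min call was also lost on leaving out any of 12 of the 15 libraries, with edgeR adjusted p-values up to 0.152 and log2 fold changes of -1.28 to -0.69 over the 15 fits. Without control replicate 3 it was -0.69 (edgeR adjusted p = 0.116).

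Cdkn2a and Cdkn2b, the neighbouring INK4 genes for p16 and p15, were, like Cdkn1c, silent or nearly so by this measure, with no library above 5 counts. Cdkn2a, a symbol that p16 shares with p19Arf, had 1 count in control replicate 5 and 1 in 135-min replicate 2. Cdkn2b had 3 in control replicate 1, 5 in 135-min replicate 1 and 1 in 405-min replicate 4. The other 13 and 12 libraries had 0. Over all 15 libraries the sums were 2 and 9 of 255811182 counts. No library exceeded an RPKM of 0.0357 for Cdkn2a or 0.112 for Cdkn2b, against 9.80 to 42.6 for their relative Cdkn2c, and the counts showed no order with time. The rows lie at chr4:88920377-88928096 and chr4:88952198-88956941 on mm9. The RefSeq windows of Cdkn2a, chr4:89282193-89282442 and chr4:89294620-89294869 on GRCm38.p6, lie further apart than its row is long. The row therefore does not span both starts, and whether reads of the first exon of p19Arf were counted is not given. Mtap, which encodes a methionine salvage enzyme and whose row ends 93383 bases before that of Cdkn2a, had 5876 to 24150 counts and a median RPKM of 164 (68.2 to 192). The other 16 genes within 500000 bases had at most 18 counts in any library, that value being reached by Dmrta1 on the far side, and 6 of them were at 0 everywhere. All but Dmrta1 lie beyond Mtap, at least 394272 bases away, and include interferon genes such as Ifna1, Ifna4 and Ifne. Whether fibroblasts express such genes at all was not tested. NIH3T3 cells are known as a line that lost the Ink4a/Arf locus, and read counts alone cannot tell a lost gene from one that is not transcribed.

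**Figure D4:**
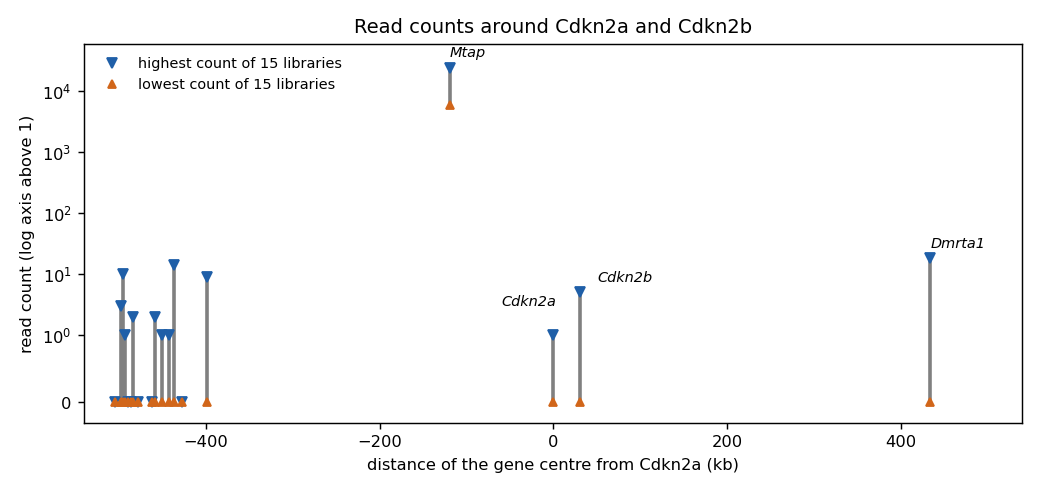
Lowest and highest read count over the 15 libraries (y axis, log scale above 1) for each gene near Cdkn2a and Cdkn2b, by the distance of its centre from that of Cdkn2a in kb (x axis). Mtap has 5876 to 24150 counts, while Cdkn2a reaches 1, Cdkn2b 5 and no other gene in the window more than 18.

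Of the other genes of the G1 pathway, a list of 30 with 29 tested, 1 rose and 0 fell at 135 min in the fit by group, against 0.564% of all genes that rose and 0.895% that fell. The riser was Cdkn1a, which encodes p21, with means of 25.7 ± 5.92 CPM (SD, n = 5) in the controls, 126 CPM ± 5.24 (SD, n = 3) at 135 min and, at 405 min, 91.2 CPM ± 26.3 (SD, n = 4). Its log2 fold change was 2.29 ± 0.25 at 135 min (edgeR adjusted p = 0.000218) and 1.83 ± 0.24 at 405 min (edgeR adjusted p = 0.000247). At 45 min it was 1.41 ± 0.25 (edgeR adjusted p = 0.585) by group and 1.27 ± 0.15 (edgeR adjusted p = 0.00224) with library set in the fit, where 0.0389% of all genes passed. At 135 min 3 of the 29 passed with library set, against 7.93% of all genes. They were Cdkn1a, Fbxo4, at -0.69 (edgeR adjusted p = 0.0486), and Cdc25a, a phosphatase that activates CDKs, at 0.56 (edgeR adjusted p = 0.0449), which is named after its value was seen. At 405 min 5 of the 29 rose and 4 fell, against 9.99% of all genes that rose and 13.4% that fell. With library set in the fit 4 of the 29 passed, Cdkn1a, Rb1, Skp1a and Fbxo4, against 13% of all genes. Rb1, which encodes the retinoblastoma protein that CDK4 and CDK6 phosphorylate, rose by 0.81 ± 0.25 by group (edgeR adjusted p = 0.0325) and 1.13 ± 0.20 with library set (edgeR adjusted p = 0.00157). Its relative Rbl2 (p130) rose by 1.15 ± 0.35 by group and had 0.82 (edgeR adjusted p = 0.0928) with library set. Ambra1, part of a ubiquitin ligase for D cyclins, rose by 0.82 ± 0.22 by group and had 0.62 (edgeR adjusted p = 0.0711) with library set. Fbxo4, an F-box protein, fell by 1.29 on the log2 scale by group (edgeR adjusted p = 0.00998) and had -0.76 ± 0.21 with library set (edgeR adjusted p = 0.0276). Ccnh and Mnat1, which encode the partners of CDK7 in the kinase that activates CDKs, fell by 1.18 and 1.09 by group and had -0.83 and -0.63 with library set, neither past the threshold there. Cks1b, a CDK-binding protein that helps p27 to be degraded, fell by 0.73 by group and had -0.44 (edgeR adjusted p = 0.097) with library set.

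The genes whose pattern over the 15 libraries was most like that of a member, after the mean of each library set was removed, are given as a description. For Cdkn1b they were Ppargc1a (Pearson r = 0.898), Acadm (0.895) and Tsc22d1 (0.884). For Cdk6 they were Masp1 (Pearson r = 0.977), Actn1 (0.963) and Flt1 (0.957). For Cdkn2c they were Zfp518 (Pearson r = 0.968), Fnip1 (0.962) and Zfp758 (0.961). The points share libraries, depth and composition, and each gene was picked as the highest of 10276.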

How the data were processed

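Poly(A) RNA was sequenced from 15 libraries of NIH3T3 cells, grouped by their titles. The authors aligned the reads to mm9 and quantified them on RefSeq genes through DNAnexus. The aligner and counter are not given in the sources used here. From these alignments the authors made and deposited an expected count (estimated count) per gene, which need not be whole. The authors normalized it by gene length and depth to an RPKM value. Also as deposited, the authors computed a Z score by subtracting the mean RPKM of the library and dividing by its SD, and a ratio of RPKM to its root mean square, and neither was used. Expected counts were rounded to whole numbers before testing.

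Counts were tested with edgeR 4.0.16 in R 4.3.3: genes with at least 1 count in every library (10276), TMM factors, 1 quasi-likelihood model over all 15 libraries, and Benjamini-Hochberg adjustment over all tested genes with a threshold of 0.05. CPM values are TMM-scaled. Alternatives were DESeq2 1.42.0, other scalings and filters, library set or GC slope as a covariate, fits within a set, a replicate block and each library left out. The GC slope covariate and the Cdk4 to Cdk6 ratio were added after the data had been seen. The library sets were drawn from these same counts, and the planned tests had no covariate. GC content was that of the longest protein-coding transcript of a gene in GENCODE, which may differ from the RefSeq transcript counted. It was available for 95.0% of tested genes.

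Members and lists were chosen with earlier results of these data known. All members are named, with Cdkn1a, up to 4 rising and 4 falling pathway genes by size of change at 135 and 405 min, and for the 3 members with the lowest joint p the 3 most correlated genes (log2 CPM, prior count 2). The chi-square over genes of the 22 replicate pairs was 12 to 274.4 per degree of freedom, so no library was counted as a duplicate. At 3 counts the floor covers counting error only. Summed marker levels were 12700 to 19800 CPM for fibroblast, 0.859 to 2.75 for epithelial, 1.57 to 5.16 for leukocyte, 0.486 to 3.81 for endothelial and 0.054 to 1.52 for muscle lists.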

Additional observations from a re-analysis of the deposited data

Results flagged for a closer look

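Of the 14 groups of 4 or 5 libraries screened for a single library far from the rest, 3 had one. Chance gives about 1 in 20 for a single group. The groups share libraries and are not independent, so the 3 were not tested against that rate. Ccnd1 was 609 CPM in control replicate 2, where the gap to the next control was 0.766 of the group's range. Ccnd3 was 41.5 CPM in the same library, with a gap of 0.811 of the range. Cdk4 was 278 CPM in 405-min replicate 3, with a gap of 0.837. Control replicate 2 was the 1 control of library set 2, and 405-min replicate 3 the 1 library of set 1 at that time. The difference of Cdkn1b from control changed between times: by group, its log2 fold change at 405 min exceeded that at 135 min by 0.84 (edgeR adjusted p = 0.0322). That call was lost in 4 of the 15 fits that left out 1 library, and with no filter (edgeR adjusted p = 0.0888). Time and library set overlapped in part, and the cause was not tested.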

How the results depend on the processing

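Of 742 values of single members under the alternatives, 619 kept their direction and their side of the threshold, 39 passed it newly, 30 lost it and 54 changed sign, of which 1 had an adjusted p under 0.05. Members past the threshold at 135 min numbered 0 by group, 2 with library set, within set 1, with the replicate block and set together, and with the GC slope, 1 with DESeq2, and 0 to 1 on leaving out a library (Cdkn1b without 405-min replicate 3). Of the 10276 tested genes 150 passed there by group, 815 with set, 584 within set 1, 621 with block and set, 826 with the GC slope and 430 with DESeq2. At 405 min the count was 1 by group, 2 with RLE size factors and with DESeq2, 3 with library set, within set 2, with block and set, and with the GC slope, and 0 with library totals, filterByExpr, no filter, the compared groups alone, within set 1 and with the replicate block alone. It was 0 to 2 on leaving out a library, with Ccnd3 (1.99, adjusted p = 0.0115) and Cdkn2c without control replicate 2, Cdk6 without control replicate 3, and Cdkn2c without 45-min replicate 3 or 405-min replicate 3. Genes past it at 405 min numbered 2409 by group, 1340 with set, 455 within set 2, 217 within set 1, 800 with the block, 1228 with block and set, 1547 with the GC slope, 3410 with DESeq2 and 4979 without control replicate 2. For 405 against 135 min it was 1 by group, 0 with no filter, within set 1 and with the block, 2 with the compared groups alone and DESeq2, 4 with set, 3 with block and set, 5 with the GC slope, and 0 to 2 on leaving out a library (Cdk6 joined without control replicate 2 or 3), beside 520 genes by group, 378 with set, 214 with block and set, 1245 with the GC slope and 1504 with DESeq2. For any time it was 0 by group, 1 with library totals and within set 1, 5 with set and with the GC slope, 4 with block and set, 2 with DESeq2, and 0 to 5 on leaving out a library (5 without control replicate 2, 2 without control replicate 3, and 1 without 45-min replicate 3 or 405-min replicate 3), beside 996 genes by group, 952 with totals, 292 within set 1, 1345 with set, 1830 with the GC slope, 1081 with block and set, 2464 with DESeq2 and 3858 without control replicate 2. Pathway genes numbered 1 at 135 min by group, 3 with set and with the GC slope and 2 with block and set. At 405 min they numbered 9 by group, 2 with the compared groups alone and within either set, 4 with set, with the block and with the GC slope, and 3 to 17 on leaving out a library (17 without control replicate 2, 3 without 405-min replicate 4, 4 without replicate 1 or 2 of 405 min). The log2 Cdk4 to Cdk6 ratio difference at 405 min, 1.01, was 1.24 within set 1, 0.56 within set 2, 1.07 with the replicate block, and 0.93 to 1.11 on leaving out a library. Scaling by library totals moved the median of all genes to 0.108 at 405 min and 0.171 between 135 and 405 min.

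The sign changes were as follows, in log2. Within set 2 at 45 min, where each side had 1 library, Ccnd1 was -0.20, Ccnd2 -0.03, Ccnd3 -0.35, Cdk6 -0.09, Cdkn1b 0.21 and Cdkn2c 0.12. Ccnd1 at 135 min was -0.02 with library totals, -0.06 with the block and -0.07 to 0.29 on leaving out a library. Ccnd3 at 45 min was -0.19 to 1.88 on leaving out a library. At 135 min Ccnd3 was 0.54 with set, 0.76 within set 1, 0.66 with block and set, and -0.85 to 0.76 on leaving out a library. At 405 min Ccnd3 was -0.20 with set, -0.78 within set 2, -0.01 with block and set and -0.56 with the GC slope, and against 135 min it was -0.74, -0.53 within set 1, -0.67 and -0.55. Cdk4 on leaving out a library was -0.07 to 0.43 at 135 min, -0.06 to 0.45 at 405 min and -0.04 to 0.13 between them. Cdk4 at 405 min was -0.20 with set, -0.003 within set 1, -0.49 within set 2, -0.06 with block and set and -0.41 with the GC slope. Against 135 min Cdk4 was -0.003 with RLE and DESeq2, -0.02 with filterByExpr and the block, -0.006 with no filter, -0.56 with set and with the GC slope, -0.44 within set 1 and -0.61 with block and set. Cdkn1b at 405 min was -0.13 to 0.19 on leaving out a library. Cdkn2c between 135 and 405 min was 0.06 with library totals, 0.62 with set and with block and set, 0.60 within set 1, 0.54 with the GC slope (adjusted p = 0.0285) and -0.37 to 0.11 on leaving out a library. The causes were not tested.

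The replicate numbers did not pair the libraries: of 19 same-number pairs 4 had a correlation of deviations over 0.1 (-0.706 to 0.437), and 2 of 15 libraries correlated best with their own number. Depth limits Cdkn1c, Cdkn2a and Cdkn2b to upper bounds. At 405 min set 1 has 1 library and set 2 has 1 control, so each within-set value rests on that library.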
